A study of Rattus norvegicus with 6 samples.

Results

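The 8 genes followed here belong to the fibroblast growth factor (FGF) system and were measured in cultured rat chondrocytes, the cells that build and maintain cartilage. They were chosen by gene symbol and made up 8 of the 18420 genes in the deposited table. Of these, 5 encode ligands (Fgf1, Fgf2, Fgf7, Fgf10 and Fgf18) and 3 encode receptors (Fgfr1, Fgfr2 and Fgfr3). The question was whether their mRNA differed between chondrocytes given the inflammatory cytokine TNF-α and chondrocytes given TNF-α followed by Nanofat lysate (NFL).

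The cells came from articular cartilage of wild-type male Sprague-Dawley rats and had been passaged before use. In the TNF-α group (n = 3) they received 10 ng/mL TNF-α with a labelled time of 6 h. In the TNF-α+NFL group (n = 3) they received the same TNF-α for 6 h and then NFL for another 24 h, with a labelled time of 30 h. Taken as times of harvest, which no other source used here states, these differ between the groups. NFL is the lysate obtained by freezing and thawing Nanofat, the mixed stromal and vascular cells of digested rat abdominal fat. All 6 libraries thus carried TNF-α exposure, and NFL and a later harvest cannot be told apart. The untreated NC group was not analysed here. Rat age and the number of animals behind a library are not given in the sources used here. The study calls the libraries of a group independent biological replicates. The sources used here do not say whether they came from separate cultures or rats, and if not, the p-values measure only the spread between these libraries. Directions follow the group names in the deposited labels, which no targeted gene in this design could check. The column headings of the study's own listing of changed genes, read as they stand, give this contrast the opposite sign, so every direction below rests on the labels and would turn if these were exchanged. By the labels, Mmp13, a collagenase that breaks down cartilage, fell in the TNF-α+NFL libraries (log2 fold change -0.31, adjusted p = 0.017, edgeR), and Col2a1, the main cartilage collagen, had a log2 fold change of 0.23 without overlap (adjusted p = 0.22).

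FGF ligands bind receptor tyrosine kinases at the cell surface, together with heparan sulfate chains that hold the ligand on its receptor. The bound receptor phosphorylates adaptor proteins and switches on the ERK cascade, which in turn induces feedback inhibitors such as the Sprouty and dual-specificity phosphatase families. In cartilage, FGF18 and its receptor FGFR3 are known for their part in chondrocyte growth and matrix, FGF2 is stored in the matrix around the cell, and FGFR1 has been tied to matrix breakdown. FGF7 and FGF10 are made by mesenchymal cells and act mainly on the epithelial form of FGFR2. These gene counts do not separate the receptor splice forms that decide ligand choice.

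Each library held between 19344893 and 19725135 estimated counts. TNF-α replicates 1 and 3 stood at the ends of the first principal component, which held 26.1% of the variance. The cells were checked against chondrocyte markers in TPM, a level per transcript length on a common library total. Sox9, the cartilage transcription factor, lay between 3.93 and 5.07 TPM. Col2a1 lay between 7.10 and 9.54 TPM, and Acan, the large cartilage proteoglycan, between 4.47 and 6.12 TPM. Col1a1, a collagen of bone, skin and fibroblasts, lay between 1123 and 1401 TPM. The 6 fibroblast-type matrix markers, with Col1a1, summed to 12539 to 16077 TPM in the TNF-α group and 13277 to 13930 in the TNF-α+NFL group. Most of this was Fn1, at 8225.73 to 11410.5 TPM, followed by Thy1, at 2402.48 to 2733.44 TPM. None of these 6 passed (adjusted p at least 0.33, edgeR). The summed TPM of 16 chondrocyte markers was 459 to 512 in the TNF-α group and 539 to 594 in the TNF-α+NFL group, most of it Col11a1, at 404 to 533. The smooth muscle and pericyte list of 7 genes, which has the contractile genes Acta2 and Myh11, summed to 5491 to 5918 TPM in the TNF-α group and 6874 to 7214 TPM in the TNF-α+NFL group. Of its 6 tested genes, 2 rose (Acta2, adjusted p = 0.010, and Myh11, adjusted p = 0.041, edgeR), where 0.408% of all tested genes did. A further 2, Tagln and Cnn1, were higher at an adjusted p of 0.12 and 0.069, without overlap, which was so in either direction for 16.8% of all genes. Cspg4, a pericyte marker, was lower without overlap, at 83.5, 72.0 and 67.9 CPM (counts scaled to library size) against 61.3, 65.7 and 62.3 CPM (log2 fold change -0.24, adjusted p = 0.22, edgeR). The pericyte marker Rgs5 held at most 2 counts, and the part of this list in the results below was not tested. The endothelial markers summed to at most 0.38 TPM, with Kdr listed at 0, and the adipocyte marker Adipoq held at most 4 counts. The 6 adipocyte markers summed to 34.4 to 37.0 TPM in the TNF-α group and 36.2 to 40.7 TPM in the TNF-α+NFL group, most of it Fabp4, at 30.1 to 35.4 TPM, and neither of the 2 tested, Fabp4 and Lpl, passed (adjusted p at least 0.70, edgeR). Of the macrophage and leukocyte markers, Csf1r held 40 counts in TNF-α replicate 1 and 1 to 7 in the other libraries, Ptprc 7 counts against at most 2, and Lyz2 14.95 estimated counts against 0. Cd68, the only one of them tested, overlapped between the groups (adjusted p = 0.71, edgeR).

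In levels per transcript length, the 8 genes spread over a wide range. Fgf7 had the highest median TPM over the 6 libraries, at 162, with a range of 150 to 173. Fgfr1 followed at 118 (112.6 to 121.7), Fgf10 at 88.1 (84.5 to 102) and Fgfr2 at 83.5 (80.8 to 86.6). The ranges of Fgf10 and Fgfr2 overlapped, so their order was not settled. Much lower were Fgf1, with a median of 12.5 TPM (10.4 to 14.5), Fgf18 at 4.33 (3.31 to 5.61), Fgfr3 at 2.87 (2.05 to 3.18) and Fgf2 at 1.17 (0.71 to 1.73). Apart from Fgf10 and Fgfr2, no neighbours in this order had overlapping ranges. The chondrocyte-associated pair Fgf18 and Fgfr3 and the matrix-stored ligand Fgf2 were therefore the 3 lowest. TPM depends on the transcript length used for each gene. This length is implied by the count and FPKM, a level scaled to transcript length and library size. Its median ranged from 551 bases for Fgf18 to 4275 for Fgfr2, with 623 for Fgf10 and 4248 for Fgf1. The order thus rests in part on these lengths, whose match to the transcripts of these cells was not tested.

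**Figure D1:**
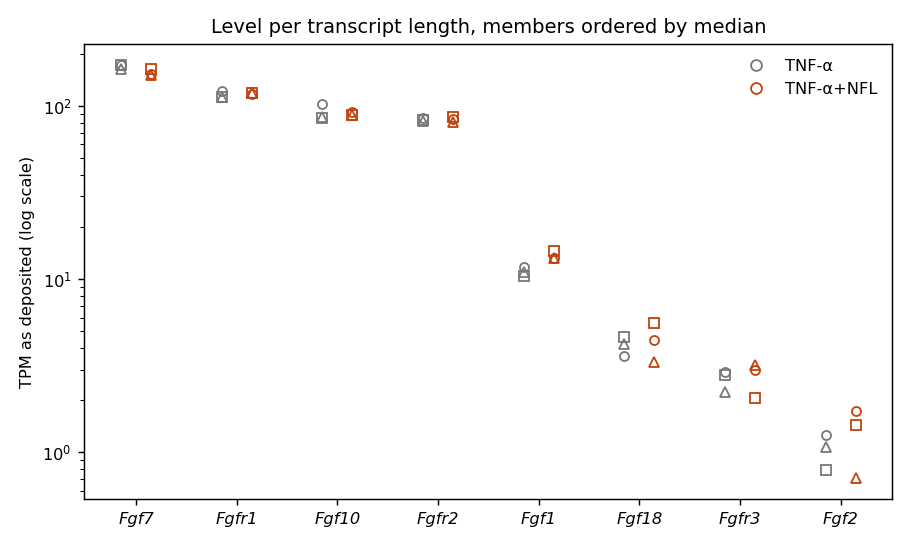
TPM of each FGF ligand and receptor (vertical axis, log scale) in the 3 TNF-α libraries (grey) and the 3 TNF-α+NFL libraries (orange), genes ordered by median; circles, squares and triangles are replicates 1, 2 and 3. Fgf7, Fgfr1, Fgf10 and Fgfr2 lay above 80 TPM and the other 4 genes below 15 TPM in every library.

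Between the groups, none of the 8 genes passed an adjusted p of 0.05 by edgeR's quasi-likelihood test, which adjusts p-values over all 13250 genes tested. For comparison, 0.408% of all tested genes were higher and 0.204% lower in the TNF-α+NFL libraries by this rule, 0.611% in all. At an unadjusted p under 0.05, 2 of the 8 were found, Fgf1 (higher) and Fgf7 (lower), against 11.1% of all genes. The same 2 genes were the only ones of the 8 whose groups did not overlap in normalized counts, which was so for 16.8% of all genes. The 8 log2 fold changes were split into 4 positive and 4 negative, with a median of 0.011, where all tested genes had a median of -0.0035. With 3 libraries a group, the exact permutation test cannot go below a two-sided p of 0.10. Because the libraries are of bulk RNA, fewer cells of a type and less RNA per cell cannot be told apart.

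Fgf1 encodes a ligand that can bind every FGF receptor and leaves the cell without a classical signal peptide. Its estimated counts were 476, 451 and 481 in the TNF-α libraries and 553, 598 and 554 in the TNF-α+NFL libraries. As CPM these were 24.9, 22.8 and 24.3 against 28.2, 30.6 and 28.2. Every TNF-α+NFL library was above every TNF-α library, and the same held in TPM. The means were 24.0 ± 1.08 and 29.0 ± 1.39 CPM (SD, n = 3), a log2 fold change of 0.27 (SE 0.061, 95% interval 0.14 to 0.41). This was a level 20.8% higher, with an interval of 10.3% to 32.4%. The unadjusted p from edgeR was 0.000629, the adjusted p 0.073, and the exact permutation p 0.10, the smallest possible. Fgf1 thus did not pass the threshold over all genes, although its 95% interval before adjustment lay above 0.

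Fgf7, or keratinocyte growth factor, is a mesenchymal ligand. Its estimated counts were 2631, 2914 and 2824 in the TNF-α libraries and 2578, 2687 and 2524 in the TNF-α+NFL libraries. Normalized, these were 138, 147 and 143 CPM against 132, 138 and 129 CPM. The lowest TNF-α library, at 137.72 CPM, was just above the highest TNF-α+NFL library, at 137.61 CPM. The means were 143 ± 4.88 and 133 ± 4.63 CPM (SD, n = 3), a log2 fold change of -0.11 (SE 0.043, 95% interval -0.20 to -0.013). The adjusted p was 0.37 (unadjusted p = 0.028, edgeR) and the exact permutation p 0.10. The estimated counts of Fgf7 were fractional in all 6 libraries. The transcript length implied by its count and FPKM was 1596, 1656 and 1683 bases in the TNF-α libraries and 1712, 1708 and 1708 bases in the TNF-α+NFL libraries. Its TPM was 172.42, 172.62 and 162.85 against 153.17, 161.88 and 149.51, again without overlap.

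Fgf10, another mesenchymal ligand, best known from lung and limb development, had 31.8, 27.2 and 28.0 CPM in the TNF-α libraries and 28.9, 27.4 and 27.5 CPM in the TNF-α+NFL libraries. TNF-α replicate 1 was the highest of the 6 and the groups overlapped. The log2 fold change was -0.053 (SE 0.066, 95% interval -0.20 to 0.090, adjusted p = 0.84, edgeR), and without TNF-α replicate 1 it was 0.018.

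Fgf18, a growth factor for chondrocytes, was measured from few counts: 19, 26 and 24 in the TNF-α libraries and 24, 30 and 18 in the TNF-α+NFL libraries. Both the highest and the lowest library came from TNF-α+NFL cells. Its fitted log2 fold change was 0.060, with an SE of 0.26 and a 95% interval of -0.50 to 0.61 (adjusted p = 0.97, edgeR).

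Fgf2, basic FGF, was the scarcest member, with 12, 8 and 11 estimated counts in the TNF-α libraries and 17, 14 and 7 in the TNF-α+NFL libraries. The TNF-α+NFL group held the 2 highest libraries and the lowest. Its log2 fold change of 0.29 had an SE of 0.37 and a 95% interval of -0.52 to 1.09 (adjusted p = 0.85, edgeR). Leaving out 1 library moved it from 0.021 (without TNF-α+NFL replicate 1) to 0.58 (without TNF-α+NFL replicate 3), so the estimate depended on single libraries.

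**Figure D2:**
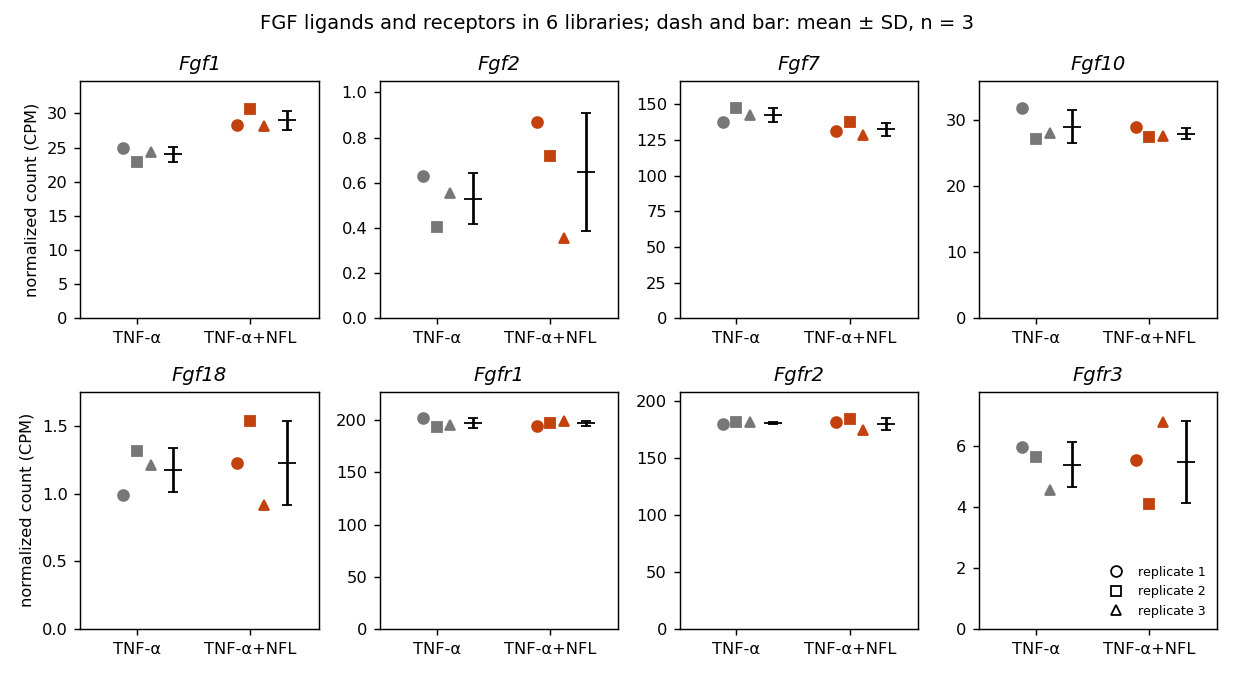
Normalized counts (CPM, each vertical axis from 0) of the 8 genes in the TNF-α (grey) and TNF-α+NFL (orange) libraries; circles, squares and triangles are replicates 1, 2 and 3, and the dash and bar are the mean and SD of 3 libraries. The groups were separate for Fgf1 (at most 24.9 against at least 28.2 CPM) and, narrowly, for Fgf7, and overlapped for the other 6 genes.

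The 2 abundant receptors had the smallest fitted differences of the 8 genes. Fgfr1, the receptor linked to catabolic signaling in cartilage, had 202, 194 and 195 CPM in the TNF-α libraries and 195, 197 and 199 CPM in the TNF-α+NFL libraries. The groups overlapped, with a mean of 197 CPM in each (SD 4.66 and 2.26, n = 3). Its log2 fold change was -0.0016 (SE 0.037, adjusted p = 0.99, edgeR), and the 95% interval, from -0.082 to 0.079, allowed a change of 5.55% down or 5.64% up. Fgfr2, a receptor of bone and epithelium, had 180, 182 and 182 CPM in the TNF-α libraries and 182, 185 and 175 CPM in the TNF-α+NFL libraries. The highest and the lowest value both came from TNF-α+NFL libraries. Its log2 fold change was -0.0069 (SE 0.038, 95% interval -0.089 to 0.075, adjusted p = 0.97, edgeR).

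Fgfr3, which restrains growth-plate chondrocytes and signals for FGF18 in cartilage, had 114, 111 and 90 estimated counts in the TNF-α libraries and 108, 80 and 133 in the TNF-α+NFL libraries. Both extremes again came from TNF-α+NFL libraries. Fgfr3 had a log2 fold change of 0.023, with a wider SE of 0.18 and a 95% interval of -0.36 to 0.41 (adjusted p = 0.98, edgeR).

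Leaving out TNF-α replicate 1 changed the call for Fgf1 and Fgf7. Without it, Fgf1 had a log2 fold change of 0.30 (adjusted p = 0.0052, edgeR) and Fgf7 one of -0.13 (adjusted p = 0.043). In that fit 6.94% of all genes passed, so the number of calls over all genes rose as well. With any other single library left out, 0 of the 8 genes passed. TNF-α replicate 1 was thus the only library whose omission gave calls among them. This was the library with the highest counts of Csf1r, Ptprc and Lyz2, whose part in these calls was not tested. Without any filter on low counts, Fgf1 passed (adjusted p = 0.038) and the share over all genes was 0.734%. Fgf1 kept a positive sign in each of its 14 alternative fits and passed 0.05 in these 2, and Fgf7 kept a negative sign in each of its 15. Since the groups of both genes did not overlap, leaving out a library could hardly turn the sign. The other fits reused the same libraries, so the constant signs are no independent check.

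**Figure D3:**
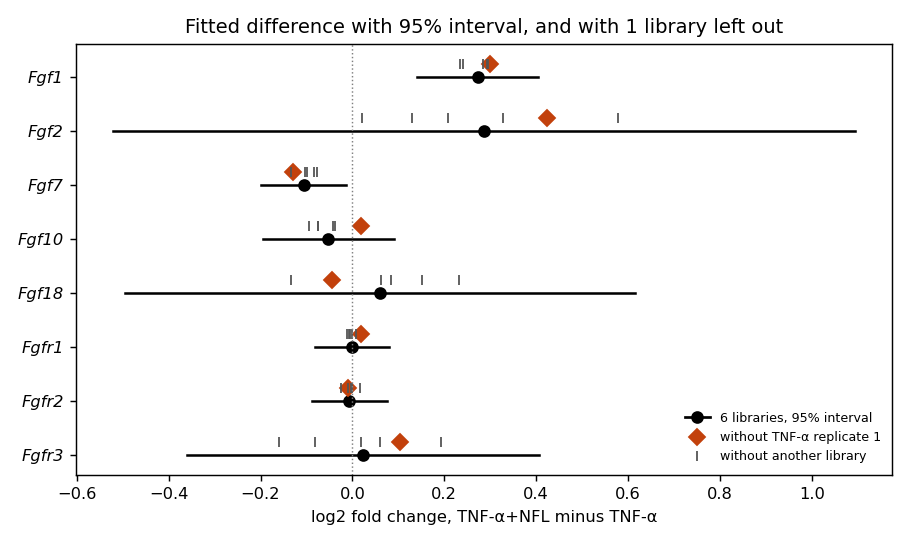
Log2 fold change (TNF-α+NFL minus TNF-α, horizontal axis) of each gene with its 95% interval from all 6 libraries (black), without TNF-α replicate 1 (orange diamond) and without each other library (ticks). The intervals of Fgf1 and Fgf7, which are not adjusted for the number of genes, lay to 1 side of 0, and those of the scarce genes Fgf2, Fgf18 and Fgfr3 were the widest.

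The make-up of the ligand and receptor pools was compared in TPM. These shares rest on the transcript length used for each gene, at a median of 623 bases for Fgf10 and 4248 for Fgf1. Estimated counts were 535 to 607 for Fgf10 and 451 to 598 for Fgf1. Fgf7 and Fgf10 together gave 93.9% to 94.3% of the TPM of the 5 ligands in the TNF-α libraries and 92.1% to 93.2% in the TNF-α+NFL libraries. Fgf1 gave 3.99% ± 0.166 and 5.17% ± 0.166 (SD, n = 3), without overlap (exact permutation p = 0.10), and Fgf7 gave 61.3% ± 2.00 and 58.7% ± 0.861, with overlap (exact permutation p = 0.2). Fgf2 gave 0.375% ± 0.0758 and 0.487% ± 0.191 (exact permutation p = 0.5). Set against Fgf7, Fgf1 reached 6.80%, 6.02% and 6.74% of its TPM in the TNF-α libraries and 8.64%, 8.95% and 8.83% in the TNF-α+NFL libraries. Among the receptors, Fgfr1 gave 57.4% ± 0.607 of the TPM of Fgfr1 to Fgfr4 in the TNF-α group and 57.6% ± 0.706 in the TNF-α+NFL group (exact permutation p = 0.7). Fgfr2 gave 41.2% ± 0.661 and 41.0% ± 0.937, and Fgfr3 gave 1.32% ± 0.158 and 1.34% ± 0.311. Over the 9 shares tested, each Benjamini-Hochberg adjusted exact permutation p was at least 0.7875. The ligands summed to 265 to 291 TPM in the TNF-α libraries and 255 to 272 TPM in the TNF-α+NFL libraries, and the 3 receptors to 197 to 209.6 TPM and 202 to 207 TPM.

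**Figure D4:**
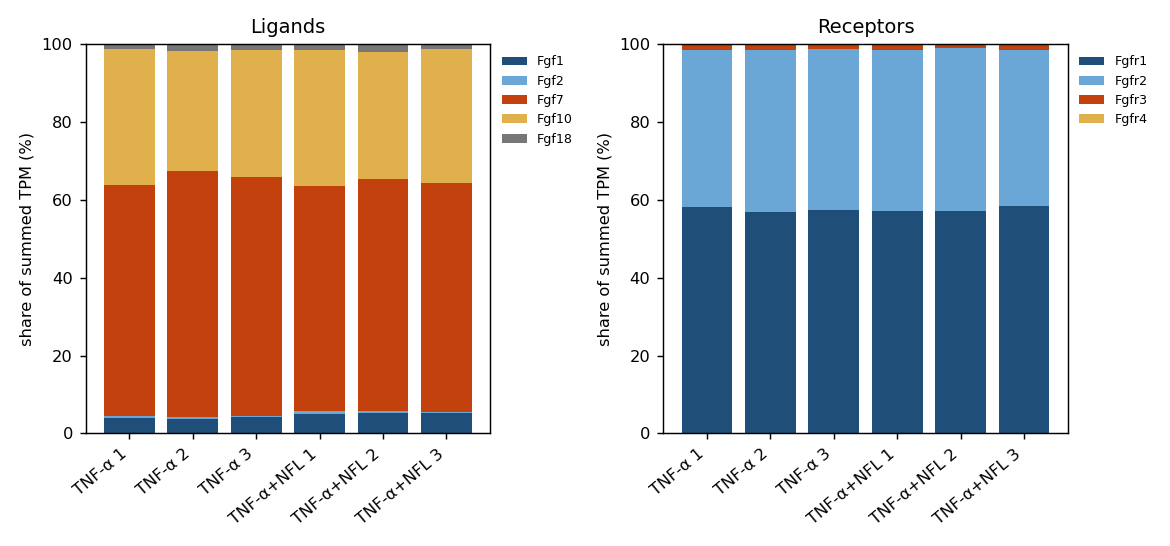
Share of the summed TPM (percent, vertical axis) that each of the 5 ligands (left) and of Fgfr1 to Fgfr4 (right) gave in each of the 6 libraries. Fgf7 and Fgf10 filled over 92% of the ligand pool, and Fgfr1 and Fgfr2 nearly the whole receptor pool, in every library.

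The other genes of the pathway were taken from 7 lists of 109 symbols, of which 100 were in the table and 81 were tested. None of the 81 passed an adjusted p of 0.05 (edgeR). At an unadjusted p under 0.05, 13 were higher and 6 lower in the TNF-α+NFL libraries, 23.5% of those tested against 11.1% of all genes. The groups did not overlap for 24 of them, where this was so for 16.8% of all genes. The median log2 fold change was 0.051, with 53 positive and 28 negative.

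Few other ligands were detected. Of 14 further secreted FGFs, 8 were in the table and only Fgf22 was tested, at 10 to 20 counts (log2 fold change 0.18, adjusted p = 0.90). Fgf8 was listed at 0 and Fgf9, a ligand of developing cartilage, held 3 to 8 counts. Of the intracellular FGF homologous factors, which bind sodium channels rather than receptors, Fgf11 (log2 fold change 0.21, adjusted p = 0.91) and Fgf14 (-0.07, adjusted p = 0.94) were tested by edgeR. Fgfr4 held 2 to 7 counts and the co-receptor Klb at most 1.

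Among the other receptors, co-receptors and binding proteins, 7 of 11 were tested, with 1 higher and 2 lower at an unadjusted p under 0.05, where 5.66% and 5.45% of all genes were. Flrt3, a membrane protein that binds FGF receptors, had 35.1, 34.2 and 33.4 CPM in the TNF-α libraries and 30.0, 26.1 and 29.1 CPM in the TNF-α+NFL libraries, without overlap. Its log2 fold change was -0.27 (SE 0.061, adjusted p = 0.075, edgeR). Ncam1, an adhesion molecule that can bind FGFR1, had a log2 fold change of 0.11 (adjusted p = 0.27), Flrt2 one of -0.11 (adjusted p = 0.45) and Fgfrl1, a receptor without a kinase, one of 0.06 (adjusted p = 0.72).

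The heparan sulfate genes lay mostly on the positive side. Of 12 tested proteoglycan cores, 9 had a positive log2 fold change and 6 were higher at an unadjusted p under 0.05, none lower, with a median of 0.12. Over all genes, 5.66% were higher and 5.45% lower by that rule, and 6385 of 13250 had a positive log2 fold change. The glypican Gpc4 had 86.2, 85.9 and 85.7 CPM in the TNF-α libraries and 93.7, 97.5 and 96.7 CPM in the TNF-α+NFL libraries (log2 fold change 0.16, adjusted p = 0.12, edgeR). Sdc4, a syndecan, had a log2 fold change of 0.15 (adjusted p = 0.14), and Gpc6 and Col18a1 had 0.14 each (adjusted p = 0.23). Sdc1 was lower without overlap, with a log2 fold change of -0.042 (adjusted p = 0.77). Hspg2, the gene of perlecan, which stores FGF2 in cartilage, varied from 31948 to 45467 counts, with the highest in TNF-α replicate 1 and a log2 fold change of -0.01. Of 18 tested enzymes that build or edit heparan sulfate, 12 were positive and 3 were higher at an unadjusted p under 0.05, with a median of 0.053. Hs6st1, a 6-O-sulfotransferase, had 160.3, 151 and 161 CPM in the TNF-α libraries and 178, 182 and 177 CPM in the TNF-α+NFL libraries, without overlap (log2 fold change 0.18, SE 0.040, adjusted p = 0.060, edgeR). Hs6st2 had a log2 fold change of 0.12 (adjusted p = 0.22), Sulf1, which removes 6-O-sulfate outside the cell, 0.13 (adjusted p = 0.26) and Ndst1 0.11 (adjusted p = 0.51). Xylt2, which starts the sugar chain, was lower without overlap (-0.091, adjusted p = 0.52).

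Of the 23 tested genes of the intracellular relay, 3 were higher and 1 lower at an unadjusted p under 0.05, where 5.66% and 5.45% of all genes were, with a median log2 fold change of 0.039. Those named were Map2k2, the ERK kinase MEK2 (-0.13, adjusted p = 0.33), Frs2, the adaptor that docks on FGF receptors (0.12, adjusted p = 0.36) and the phosphatase Ptpn11 (0.10, adjusted p = 0.39, edgeR). Of 18 tested feedback inhibitors and targets, 3 were lower and none higher at an unadjusted p under 0.05, where 5.45% of all genes were lower and 5.66% higher, with a median of 0.017. Fosl1, an AP-1 transcription factor induced by ERK, had 44.6, 50.7 and 50.9 CPM in the TNF-α libraries and 41.2, 40.5 and 41.5 CPM in the TNF-α+NFL libraries, without overlap (log2 fold change -0.25, SE 0.057, adjusted p = 0.080, edgeR). Ccnd1, cyclin D1, had a log2 fold change of -0.14 (adjusted p = 0.12), and Spry2, a Sprouty inhibitor, one of -0.13 (adjusted p = 0.39). Etv4, an ETS factor widely read as an FGF target, had 0.21 (adjusted p = 0.47), while the ERK phosphatase Dusp6 had 0.09 (adjusted p = 0.70).

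Without TNF-α replicate 1, 21 of the 81 pathway genes passed an adjusted p of 0.05 (edgeR), 25.9% against 6.94% of all genes, 15 higher and 6 lower. With any other single library left out, 0 of the 81 passed, so these calls belong to that fit alone. They included 7 proteoglycan cores (Col18a1, Gpc1, Gpc4, Gpc6, Hspg2, Sdc3 and Sdc4) and 5 heparan sulfate enzymes (Hs6st1, Hs6st2, Ndst1, Sulf1 and Sulf2), all higher. Hspg2, with a log2 fold change of -0.01 over all 6 libraries, had one of 0.18 (adjusted p = 0.010, edgeR) there. The 6 lower genes were Ccnd1, Flrt3, Fosl1, Hras, Ier3 and Map2k2.

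**Figure D5:**
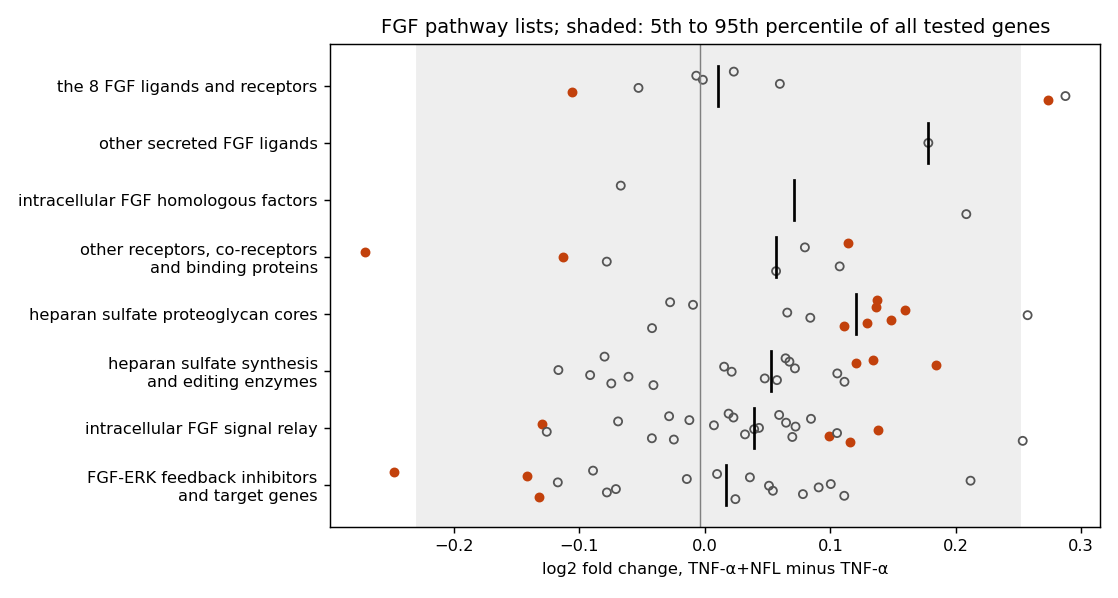
Log2 fold change (TNF-α+NFL minus TNF-α, horizontal axis) of each tested gene in the 8 FGF ligands and receptors and the 7 pathway lists; filled points had an unadjusted p under 0.05 and the black line is the median of a list. The shaded band spans the middle of all tested genes, and the median of the proteoglycan cores, 0.12, lay to the right of their median of -0.0035.

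The genes whose pattern over the 6 libraries was most like that of Fgf1 and Fgf7 were sought as the smallest root-mean-square (RMS) difference of log2 CPM, each gene centred on its own mean. For Fgf1, whose own values had an RMS of 0.146 around their mean, these were Rock2, a kinase of the actin cytoskeleton (RMS difference 0.0297), the adhesion receptor Adgra3 (0.0299) and the laminin-related gene Ntn4 (0.0337). For Fgf7, with an RMS of 0.0666 around its own mean, these were the death receptor Fas (0.0153), the early response gene Ier3 (0.0186) and Lrsam1 (0.0189). These likenesses are descriptions over 6 libraries that share their depth and scaling.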

How the data were processed

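The authors deposited 3 values per gene and library: estimated counts, some of them fractional and none normalized, FPKM values, scaled to transcript length and library size, and TPM values, scaled to transcript length and to a common sum. The submitters' processing notes name HISAT2 2.0.4, Bowtie2 2.2.5, RSEM 1.2.12 and the build Rnor_6.0, without their roles. Libraries were single-end reads of poly(A) RNA. No coordinates are given, since the gene table used here is of another build (GRCr8) and served only for names. 17068 of the 18420 gene identifiers matched it.

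After rounding, the counts of the 13250 genes kept by filterByExpr were scaled by TMM and fitted by the robust quasi-likelihood method of edgeR 4.0.16 (R 4.3.3). Tests were two-sided, and p-values were adjusted over those genes by the Benjamini-Hochberg method. The biological coefficient of variation was 6.39%. The SE of a log2 fold change was its absolute value divided by the square root of F, and intervals are not adjusted for the number of genes. CPM used TMM-scaled library sizes. Single values and shares of TPM had an exact permutation test over the 20 assignments of the 6 libraries. Levels of different genes were compared only in TPM, which depends on the transcript length used for each gene. A gene that shares reads with a near-identical copy is uncertain, as its reads were shared out by estimate. The fit was tested on simulated data.

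The genes named are all 8 ligands and receptors, and in each pathway list those past an adjusted p of 0.05, otherwise up to 4 with the smallest unadjusted p, together with tested FGF family genes, chondrocyte markers and the 3 nearest patterns. A gene that this rule names is not reported here. Dusp6, Hspg2, Mmp13, Sdc1, Xylt2, other marker genes, genes at low counts and those called without TNF-α replicate 1 were named after their values were seen. The members and lists were chosen with earlier results of these data known. Alternatives were other filters, DESeq2 1.42.0, limma 3.58.1 (voom, and log2 of FPKM plus a pseudocount of 1 or 0.1), a replicate block and leaving out each library. The DESeq2 test without independent filtering was added after the data had been seen.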

Additional observations from a re-analysis of the deposited data

How the results depend on the processing

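The count of FGF ligands and receptors past an adjusted p of 0.05, 0 in edgeR, was 1 (Fgf1) with no filter on low counts and 1 (Fgf1) at an adjusted p under 0.10, and ranged from 0 to 2 when each library was left out. The 2 were Fgf1 and Fgf7 without TNF-α replicate 1. The adjusted p of Fgf1 ranged from 0.0052 to 0.39 and that of Fgf7 from 0.043 to 1.00 over their alternatives. The 81 genes called in all became 132 with no filter, 157 by the DESeq2 Wald test, 35 by limma-voom, 2 by limma on log2(FPKM + 1), 2 by limma on log2(FPKM + 0.1) and 164 at an adjusted p under 0.10, and from 5 (without TNF-α+NFL replicate 1) to 930 (without TNF-α replicate 1) with a library left out. The 0 pathway genes became 3 with no filter (Flrt3, Fosl1 and Hs6st1), 1 with at least 10 counts in every library (Hs6st1), 2 by DESeq2 (Ccnd1 and Hs6st1), 1 by DESeq2 without independent filtering, 3 at an adjusted p under 0.10, and from 0 to 21 with a library left out. The cause of these shifts was not tested.

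The replicate block, fitted although same-numbered libraries did not deviate together (correlations 0.030, -0.024 and 0.10), gave 34 genes in all, 0 of the 8 FGF genes and 0 pathway genes, with an adjusted p of 0.14 for Fgf1. Signs near 0 turned: Fgfr1 was 0.00064 with at least 10 counts in every library, and Fgfr3 was -0.00085 by limma on log2(FPKM + 0.1). With a library left out, log2 fold changes ranged from -0.094 to 0.018 for Fgf10, 0.021 to 0.58 for Fgf2, -0.13 to 0.23 for Fgf18, -0.011 to 0.018 for Fgfr1, -0.024 to 0.017 for Fgfr2 and -0.16 to 0.19 for Fgfr3. DESeq2 gave no adjusted p for 5 of the 8 genes, whose mean counts were under its filter, and Fgf2 was not tested with at least 10 counts in every library. Counts of 7 to 30 for Fgf2 and Fgf18 limit what could be seen.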
